A study of Mus musculus with 6 samples.

Results

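Zfp36, Zfp36l1 and Zfp36l2 encode a family of RNA-binding proteins that speed the decay of mRNAs. They were followed in CAD cells, a catecholaminergic mouse neuroblastoma line, after transfection with a plasmid expressing miR-124a-2. All probe sets that the platform annotation assigns to the 3 genes were taken, each on its own: 1 for Zfp36, 2 for Zfp36l1 and 3 for Zfp36l2, or 6 of 45101 probe sets on the array. The genes are 3 of 18194 with a probe set that names a single gene. The family was chosen by the lower Zfp36l2 signal in this same comparison, which was already known, so the values of its members are a description. Counts of members past a threshold are given for the main fit and again for the alternative analyses, and nothing is read from them. Membership follows the annotation and has no threshold.

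The proteins of this family bind AU-rich elements in the 3′ untranslated regions of short-lived mRNAs through a pair of CCCH zinc fingers and recruit the CCR4-NOT deadenylase, which removes the poly-A tail. Zfp36, also called tristetraprolin, is best known for limiting Tnf mRNA in macrophages, and all 3 genes were first described as immediate-early genes that respond to serum and growth factors. In neurons the related elements are also bound by ELAVL proteins, most of which stabilise the mRNA. miR-124 is a microRNA enriched in the brain, and microRNAs lower the mRNAs that they pair with.

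There were 3 arrays of cells given the RIPmiR-124a-2 plasmid, which expresses miR-124a-2 (miR-124a-2 plasmid), and 3 arrays of cells given the empty RI vector (empty vector), each labelled as a biological replicate. All cells were of the same line and grew in medium with fetal bovine serum or Fetaclone III; the labels do not say which array had which, nor the time after transfection or the share of cells that took up plasmid. RNA came from whole cultures, so fewer cells expressing a gene and less RNA per cell cannot be told apart. Each array gave an RMA log2 signal per probe set, and precision is limited by how few arrays there are.

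The arrays also differed outside the groups. miR-124a-2 plasmid replicates 1 and 2 and empty vector replicate 1 form a narrow set, whose log2 signals have interquartile ranges of 3.06 to 3.10. The remaining 3 arrays form a wide set with ranges of 3.26 to 3.35. Poly-A control transcripts averaged 5.96 to 5.97 in both replicate 1 arrays and 5.57 to 5.71 in the other 4. Differences within the narrow arrays (2 plasmid, 1 vector) and within the wide arrays (1 plasmid, 2 vector) are therefore given for the family, for genes described array by array and for the lists. The TrpnX control probe sets, which match a bacterial RNA absent from the samples, averaged 3.37 to 3.50 and give the scale of background. Ptbp1, a reported miR-124 target, was at 10.78 ± 0.22 with the miR-124a-2 plasmid and at 12.02 ± 0.04 with the empty vector (log2 signal, SD, n = 3 each, limma adjusted p = 0.00978). It was thus lower on the arrays labelled as given the plasmid that expresses miR-124a-2. Of 15 measured catecholaminergic and neuronal markers, Chgb, Hand2, Phox2a, Tubb3 and Dbh had group means of 10.16 to 12.19. Th was at 6.77 and 6.32 and Slc18a2 at 3.86 and 3.99 in the plasmid and vector groups. Over the 6 arrays, 4 of the 15 had a mean signal under 6: Ddc, Gata3, Slc18a1 and Slc18a2. The 6 glial markers had group means of 3.34 to 4.99, the 6 leukocyte markers 3.46 to 6.21 and the 8 fibroblast and endothelial markers 3.49 to 5.14.

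Zfp36l2, whose protein is required in mice for blood stem cell maintenance and female fertility, was the member with the large difference, in 1 of its 3 probe sets. Probe set 1437626_at had log2 signals of 7.91, 7.59 and 8.41 in miR-124a-2 plasmid replicates 1, 2 and 3, against 9.16, 9.41 and 9.64 in empty vector replicates 1, 2 and 3. The groups did not overlap, and the highest plasmid array lay 0.75 below the lowest vector array. The means were 7.97 ± 0.42 with the miR-124a-2 plasmid and 9.41 ± 0.24 with the empty vector (SD, n = 3 each). The log2 fold change was -1.44 ± 0.21 (limma standard error), which is 2.71-fold lower. The median log2 fold change of all probe sets was 0.00, and 13 of the 45037 non-control probe sets had a lower value than this one. In each group the wide arrays read higher than the narrow ones, by 0.67 among the plasmid arrays and by 0.37 among the vector arrays. The narrow set alone gave -1.41 and the wide set -1.12.

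The second probe set of Zfp36l2 by signal, 1451034_at, was lower on average but its groups overlapped. It had 5.92, 6.45 and 6.39 in plasmid replicates 1 to 3, against 6.23, 7.24 and 6.96 in vector replicates 1 to 3. Empty vector replicate 1 lay below plasmid replicates 2 and 3. The log2 fold change was -0.56 ± 0.26 (limma standard error). The wide set gave -0.71 and the narrow set -0.04. Leaving out empty vector replicate 1 gave -0.85, and leaving out empty vector replicate 2 gave -0.34.

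The dimmest Zfp36l2 probe set, 1439054_at, had 5.78, 6.24 and 5.67 in plasmid replicates 1 to 3, against 5.84, 5.74 and 5.90 in vector replicates 1 to 3. Plasmid replicate 2 was the highest of the 6 arrays and plasmid replicate 3 the lowest, so the vector arrays lay within the range of the plasmid arrays. The log2 fold change was 0.07 ± 0.15 (limma standard error), and -0.10 without miR-124a-2 plasmid replicate 2. The narrow set gave 0.17 and the wide set -0.16.

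The 3 Zfp36l2 probe sets thus spanned 1.504 between their lowest and highest log2 fold change. Over the 2366 genes with 3 probe sets, the median of this span was 0.19. The span of Zfp36l2 is made up nearly whole by the low value for which the family was chosen, so it is given as a description. Averaged over its 3 probe sets, Zfp36l2 had a log2 fold change of -0.64. Which part of the transcript each probe set reads was not analysed here.

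**Figure D1:**
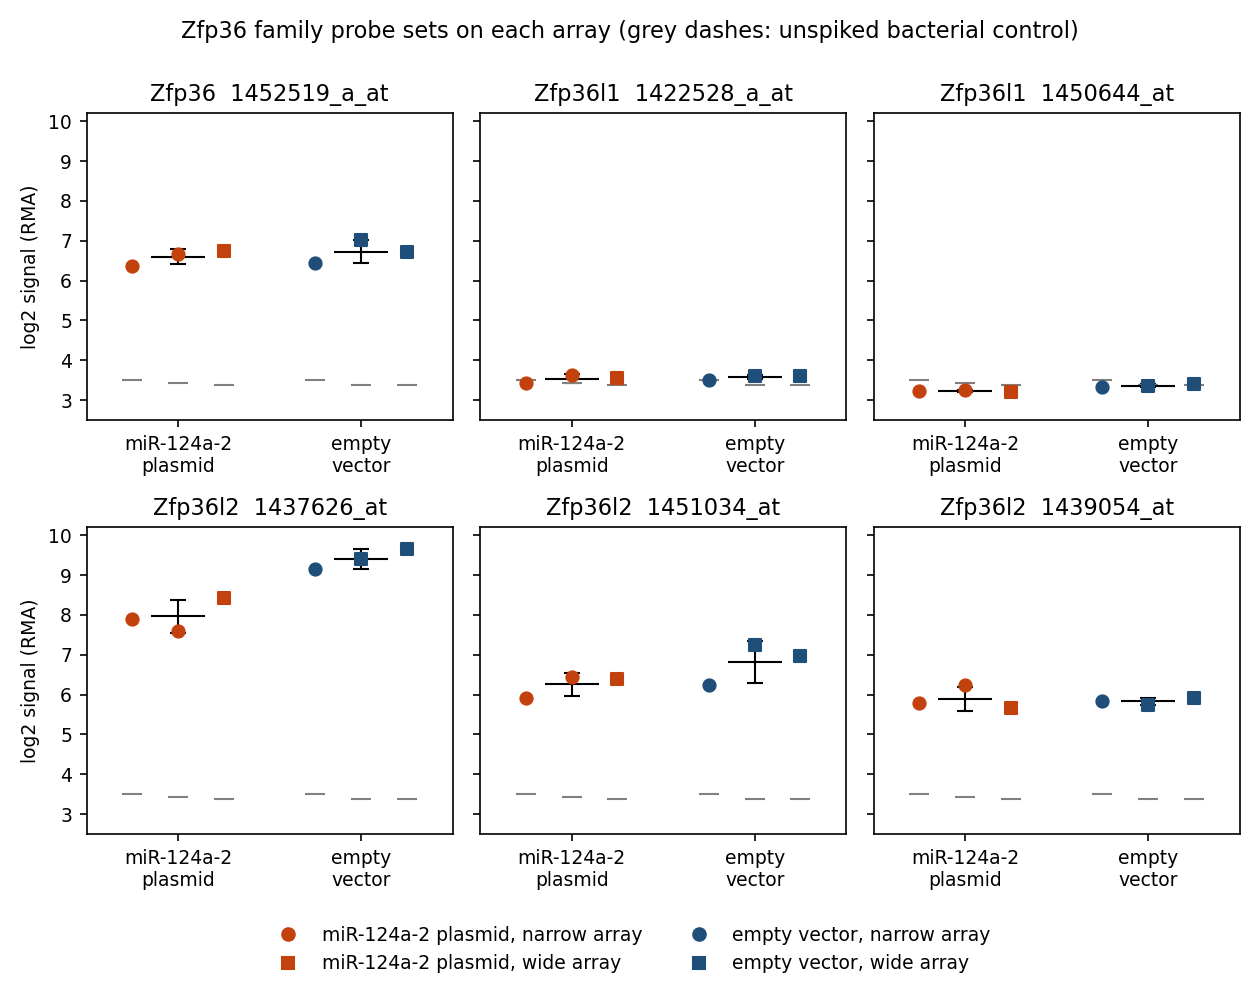
RMA log2 signal (vertical axis) of the 6 Zfp36 family probe sets on each array, miR-124a-2 plasmid on the left and empty vector on the right of each panel. Circles are narrow and squares wide arrays, black bars are group means with SD (n = 3 each), and grey dashes are the TrpnX background control on the same array. In 1437626_at the plasmid arrays, 7.59 to 8.41, lie below the vector arrays, 9.16 to 9.64, and both Zfp36l1 probe sets lie at the level of the background control.

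Zfp36l1, which in mice is needed for development of the placenta and acts with Zfp36l2 in lymphocytes, gave no signal clearly above background in either group. Probe set 1422528_a_at had 3.42, 3.63 and 3.56 in plasmid replicates 1 to 3, against 3.51, 3.59 and 3.60 in vector replicates 1 to 3. Across the 6 arrays it lay between 0.08 below and 0.23 above the TrpnX control of the same array. Its groups overlapped, with a log2 fold change of -0.03 ± 0.10 (limma standard error).

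Probe set 1450644_at of Zfp36l1 had 3.23, 3.25 and 3.20 in plasmid replicates 1 to 3, against 3.33, 3.36 and 3.39 in vector replicates 1 to 3. All plasmid arrays were below all vector arrays, by a gap of 0.08, at signals from 0.27 below to 0.02 above the TrpnX control. The log2 fold change was -0.13 ± 0.09 (limma standard error), and the narrow and wide sets gave -0.09 and -0.18. At this level neither probe set measures how much Zfp36l1 mRNA the cells held.

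Zfp36 itself was measured by 1 probe set, 1452519_a_at, well above the TrpnX control by 2.88 to 3.65. It had 6.38, 6.68 and 6.75 in plasmid replicates 1 to 3, against 6.44, 7.02 and 6.71 in vector replicates 1 to 3. The groups overlapped, and in both of them replicate 1 was the lowest array. The log2 fold change was -0.12 ± 0.17 (limma standard error), which is smaller than its error. The narrow set gave 0.09, the wide set -0.11, and the fit without empty vector replicate 2 gave 0.03.

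In the limma fit over all 45037 non-control probe sets, 0 of the 6 members passed an adjusted p of 0.05, where 0.269% of all probe sets passed (121, or 0.209% lower and 0.06% higher). At an unadjusted p under 0.05 there was 1 of the 6, and 3688 of all. With 1 probe set per gene, the brightest, 1 of the 3 genes passed as lower, Zfp36l2 by 1437626_at, where 0.698% of 18194 genes passed as lower and 0.907% in either direction. Zfp36l2 no longer passed with the mean of its probe sets, where 110 of all genes passed. It also did not pass when miR-124a-2 plasmid replicate 1 or 2 or empty vector replicate 2 or 3 was left out. In those fits 13, 46, 0 and 0 of all genes passed, in that order, against 165 in the main fit. Groups did not overlap, with the plasmid lower, for 2 of the 6 members and for 6.97% of all probe sets; with the plasmid higher this held for 0 of the 6 and for 6.28% of all. Nothing is read from these counts, since the family was chosen for this comparison.

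**Figure D2:**
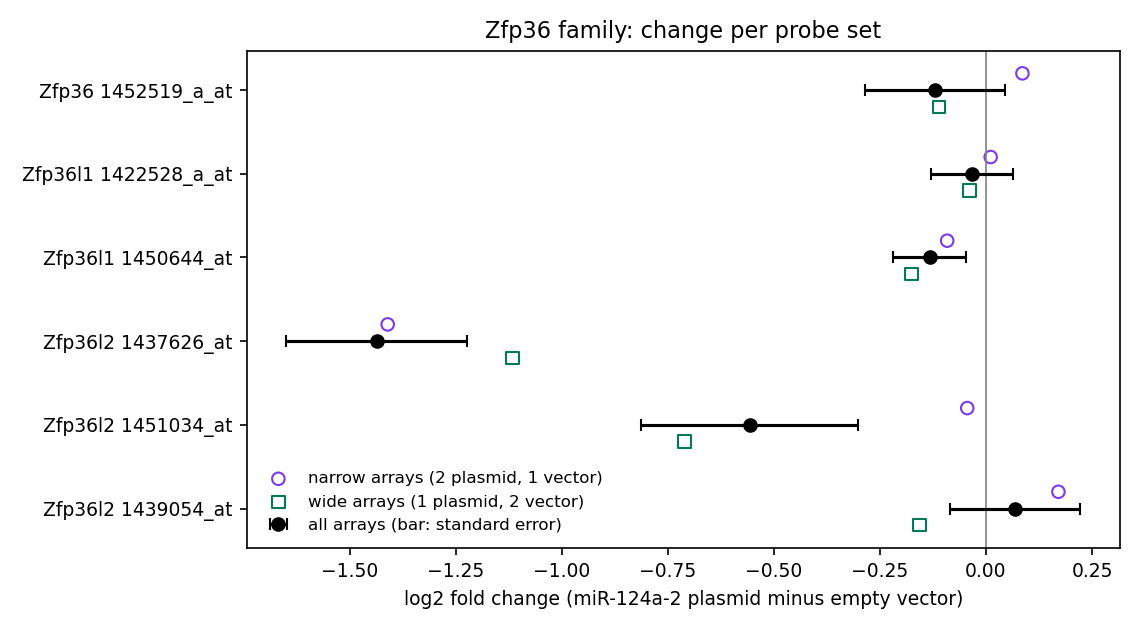
Log2 fold change, miR-124a-2 plasmid minus empty vector (horizontal axis), of each Zfp36 family probe set. Black points with bars are the fit over 6 arrays with its standard error, open circles the difference within the narrow arrays and open squares that within the wide arrays. 1437626_at of Zfp36l2 is at -1.44, with -1.41 and -1.12 within the array sets, while 1451034_at, at -0.56, has -0.04 and -0.71.

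The genes with profiles most like that of 1437626_at were sought among all genes by the root mean square difference of log2 signals over the 6 arrays, each profile centred on its own mean. The nearest was Lamc1, a laminin chain, at a difference of 0.107. Rela, an NF-kappaB subunit, followed at 0.128, and Iqgap1, a scaffold of the actin cortex, at 0.145. Elovl1, a fatty acid elongase, stood at 0.151 and Adam12, a metalloprotease, at 0.165. The median over all genes was 0.794 and the lowest 1% lay under 0.422. Lamc1 had -1.65 in the narrow and -0.95 in the wide set. Log2 fold changes of the 5 were -1.45, -1.36, -1.29, -1.20 and -1.34 in that order. In each of them plasmid replicate 3 was the highest plasmid array, as in 1437626_at. The 5 were picked for likeness over these same arrays, so nothing is read from the shared order. The likeness rests on 6 arrays in 2 groups, and genes with a large fall are alike in it through that difference. Of the other family members, 1451034_at stood at 0.570, 1450644_at at 0.711, Zfp36 at 0.715, 1422528_a_at at 0.757 and 1439054_at at 0.865.

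**Figure D3:**
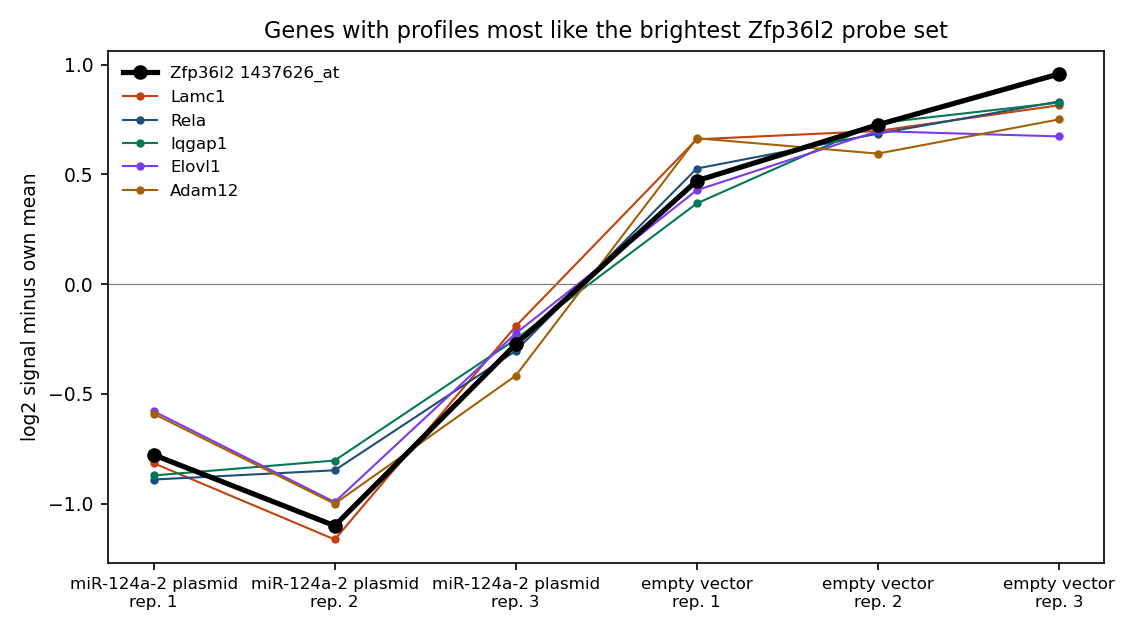
Log2 signal minus the mean over the 6 arrays (vertical axis) for the brightest Zfp36l2 probe set (thick black line) and the 5 genes with the nearest profiles, by array, plasmid arrays on the left. All 6 lines are below 0 on the plasmid arrays and above 0 on the vector arrays. Plasmid replicate 3 is the highest plasmid array in each. The 5 genes were picked for likeness over these same arrays, so nothing is read from the shared shape.

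Genes that work with or on the family were counted from 6 lists in the limma fit over 18194 genes, whose median log2 fold change was 0.02. Among 17 kinases, 14-3-3 proteins and phosphatases that act on the family directly or further upstream, 2 fell, 0 rose and 15 did not pass. Over all genes 0.698% fell and 0.209% rose. The list median was 0.05 (0.11 narrow set, 0.05 wide set). Mapk14 encodes p38 alpha, the kinase that activates MK2, which phosphorylates tristetraprolin. Mapk14 had 7.96, 7.46 and 8.07 in plasmid replicates 1 to 3, against 8.72, 8.81 and 8.85 in vector replicates 1 to 3, with no overlap. It fell by 0.97 (SE 0.16, limma adjusted p = 0.0327, from 0.0113 to 0.201 over the alternatives), and the narrow and wide sets gave -1.01 and -0.76. Of its 6 probe sets, 4 were lower, and with their mean Mapk14 had -0.47 and did not pass (adjusted p = 0.0568).

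Map2k3, which encodes a kinase that activates p38, had 8.0, 7.90 and 8.04 in plasmid replicates 1 to 3, against 8.44, 8.64 and 8.52 in vector replicates 1 to 3. The groups did not overlap, and Map2k3 fell by 0.55 (SE 0.10, limma adjusted p = 0.0468, from 0.0247 to 0.284 over the alternatives), with both probe sets lower and -0.49 and -0.54 in the narrow and wide sets. Neither kinase passed with median centring, or without miR-124a-2 plasmid replicate 1 or any 1 of the empty vector arrays. Without miR-124a-2 plasmid replicate 2, 1 of them passed. Fewer of all genes passed there too: 99 with median centring, and 13 and 46 without plasmid replicates 1 and 2. Without empty vector replicates 1, 2 and 3 the numbers were 61, 0 and 0, against 165 in the main fit. The other p38 pathway genes of the list, named after their values were seen, did not pass: the MK2 gene Mapkapk2 had a log2 fold change of -0.19 and its paralog Mapkapk3 one of 0.16. The p38 beta gene Mapk11 had 0.05, and Map2k6, which encodes another activator of p38, had 0.01.

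Of 16 AU-rich element binding proteins and related regulators outside the family, 0 fell, 0 rose and 16 did not pass. Over all genes 0.907% passed. The list median was -0.07, against -0.01 in the narrow and 0.04 in the wide set. The largest values were those of neuronal ELAVL genes. Elavl2 had 9.64, 9.12 and 9.41 in plasmid replicates 1 to 3, against 9.08, 8.60 and 8.67 in vector replicates 1 to 3. Its groups did not overlap, and the log2 fold change of 0.61 (SE 0.17) did not pass (limma adjusted p = 0.176, from 0.0277 to 0.601 over the alternatives). The narrow set gave 0.30 and the wide set 0.78, and 1 of its 5 probe sets was lower, with 0.33 for their mean. Elavl4 had 10.24, 10.36 and 10.58 in plasmid replicates 1 to 3, against 9.86, 9.79 and 9.88 in vector replicates 1 to 3. Its groups did not overlap either, all 3 of its probe sets were higher, and the log2 fold change of 0.55 (SE 0.11) did not pass (limma adjusted p = 0.0697, from 0.0197 to 0.351 over the alternatives), with 0.44 and 0.74 in the narrow and wide sets. Elavl4 passed in 5 of 14 alternatives and Elavl2 in 2 of 14. In this list 4 members were higher without overlap and 1 lower, where 8.50% of all genes were higher and 7.76% lower without overlap. The catecholaminergic and neuronal markers had a median of 0.16, with 0 of 15 past the threshold and 5 higher without overlap, and their part in the ELAVL values was not tested.

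Of 19 measured genes of the CCR4-NOT complex, its recruiters and other deadenylation factors, 0 passed in either direction, where 0.907% of all genes did. The median was -0.07, against -0.01 in the narrow and 0.03 in the wide set. Btg1, an antiproliferative protein that binds the deadenylase, had a log2 fold change of 0.33 (limma adjusted p = 0.323). Cnot7, a catalytic subunit, had one of 0.23 (limma adjusted p = 0.504). Of 23 genes of decapping, 5′-to-3′ decay and the exosome, 0 passed, where 0.907% of all genes did. The list median was -0.09 (-0.14 narrow set, -0.08 wide set), with 18 members below 0. Exosc8, an exosome core subunit, had 8.85, 8.79 and 8.92 in plasmid replicates 1 to 3, against 9.21, 9.43 and 9.38 in vector replicates 1 to 3. That log2 fold change of -0.49 (SE 0.10) did not pass (limma adjusted p = 0.0712), but did in 6 of 14 alternatives (adjusted p from 0.0274 to 0.373), and the narrow and wide sets gave -0.39 and -0.49. Exosc2, another core subunit, had -0.33 (limma adjusted p = 0.258), and 7 of the 23 were lower without overlap and 0 higher, where 7.76% of all genes were lower and 8.50% higher.

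Of 29 measured mRNAs reported as targets of the family, 0 rose, 0 fell and 29 did not pass. Over all genes 0.907% passed. The list median was -0.06 (0.01 narrow set, -0.04 wide set), with 12 members above 0 and 17 below. The largest values were 0.39 for Fos, a transcription factor subunit (limma adjusted p = 0.235), and 0.36 for the cytokine gene Il3 (limma adjusted p = 0.615). Fos had 9.03, 8.66 and 8.85 in plasmid replicates 1 to 3, against 8.60, 8.35 and 8.41 in vector replicates 1 to 3, with no overlap, and with 0.25 and 0.47 in the narrow and wide sets. Il3 was at 4.06 ± 0.46 with the miR-124a-2 plasmid and at 3.71 ± 0.05 with the empty vector (log2 signal, SD, n = 3 each), and its groups overlapped. The vector level of Il3 is near that of the TrpnX control (3.37 to 3.50), and the narrow and wide sets gave 0.57 and -0.11. Tnf, the best studied target and named here after its value was seen, had a log2 fold change of 0.18 (limma adjusted p = 0.800). Of the 29, 18 had a mean signal under 6. The log2 fold changes of the 29 ran from -0.31 to 0.39. Without overlap, 2 were higher and 6 lower, where 8.50% of all genes were higher and 7.76% lower.

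Of 22 immediate-early genes, the class in which the family was first described, 0 passed in either direction, where 0.907% of all genes did. The median was -0.12, while the narrow set alone gave 0.01 and the wide set -0.02. The largest value was that of Egr1, a zinc finger transcription factor induced by serum. Egr1 had 7.76, 9.54 and 9.16 in plasmid replicates 1 to 3, against 9.28, 9.91 and 9.65 in vector replicates 1 to 3. Plasmid replicate 1 was the lowest of the 6 arrays while plasmid replicate 2 lay among the vector arrays, and the log2 fold change of -0.79 (SE 0.40) did not pass (limma adjusted p = 0.546), with -0.63 and -0.61 in the narrow and wide sets. Fos, described above, had the next largest value.

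**Figure D4:**
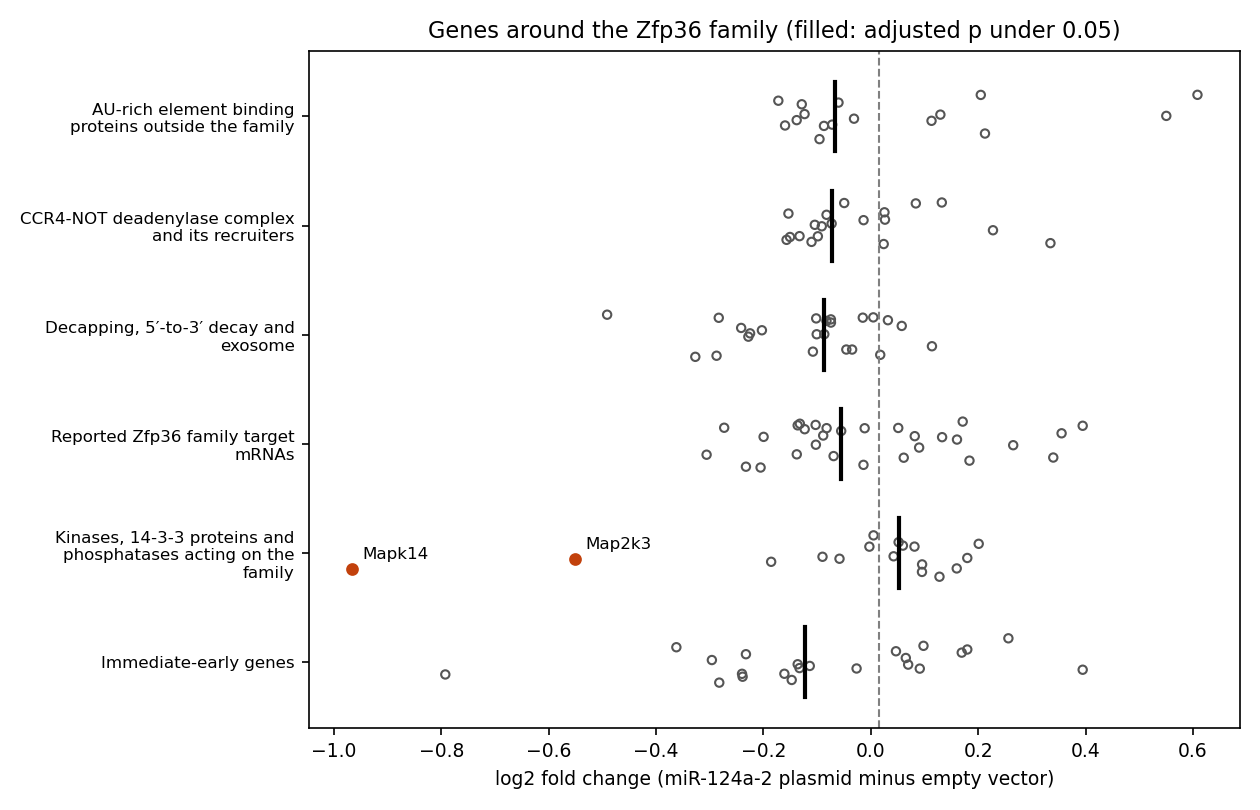
Log2 fold change, miR-124a-2 plasmid minus empty vector (horizontal axis), of the measured genes of the 6 lists, 1 point per gene, spread vertically at random for legibility. Filled points passed an adjusted p of 0.05 over all genes, black bars are list medians and the dashed line is the median of all genes (0.02). Mapk14 at -0.97 and Map2k3 at -0.55 are the filled points, and list medians lie between -0.12 and 0.05.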

How the data were processed

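The authors deposited a log2 signal for every probe set on every array; per the submitters' processing notes these come from RMA. Its version, probe definition file and filters are not given in the sources used here. Per the labels' protocols, total RNA was extracted with Trizol, and 6 ug of it went into biotin-labelled cRNA. No further normalization was applied.

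Probe sets were named from the platform annotation of 2016, which gives a single gene for 34958 of them, several genes for 932 and no entry for 9211. The 64 control probe sets were left out of the fit over probe sets. In the fit over genes, the brightest probe set over the 6 arrays stood for each symbol. The group comparison used limma 3.58.1 under R 4.3.3 (linear model with empirical Bayes variances, no block, two-sided p-values), adjusted by Benjamini-Hochberg over all features and a threshold of 0.05; the script was tested on simulated data. Narrow and wide arrays were divided at the largest gap between arrays. Arrays with high and low poly-A control signal (the poly-A sets) were divided in the same way. The labels name no batch.

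The members and the gene lists were chosen with earlier results of these data known. Named genes are all member probe sets, Ptbp1, up to 3 members per list that passed (otherwise the 2 with the largest change) and the 5 genes nearest in profile; markers are given as ranges or examples. Tnf, Mapkapk2, Mapkapk3, Mapk11 and Map2k6 were added after their values were seen. Alternatives were blocks (replicate number, array set, poly-A set), quantile normalization, median centring and an intensity trend. The others were a filter on dim features, the mean of probe sets, and each array left out in turn.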

Additional observations from a re-analysis of the deposited data

How the results depend on the processing

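The brightest Zfp36l2 probe set had log2 fold changes from -1.66 to -1.24 over the alternatives. The family was chosen for this low value and the groups do not overlap. Leaving out an array could therefore not have changed the sign, and nothing is read from its constancy. The number of family probe sets past the threshold was 0 in the main fit. It was 1 with the replicate block, a block for the array set or for the poly-A set, quantile normalization or an intensity trend. It was also 1 with the filter on dim features, which removed both Zfp36l1 probe sets. Whether the replicate numbers pair the samples was not settled. Deviations of same-numbered arrays correlated at 0.54, -2.65e-05 and 0.55 for replicates 1, 2 and 3. The values for replicates 1 and 3 were the highest of any plasmid and vector array, while plasmid replicate 2 correlated best with vector replicate 1 (0.15). With the replicate block 673 probe sets and 457 genes passed, against 121 and 165 without it, with 2 AU-rich element binding proteins and 1 decay gene (0 without it). The array set as a block gave 510 probe sets and 546 genes, and the poly-A set as a block 340 and 290. Quantile normalization gave 266 and 311, and an intensity trend 218 and 270. Each of them gave 1 AU-rich element binding protein and 1 decay gene. The filter gave 308 genes, with 1 in each of those lists. Median centring gave 39 probe sets, 99 genes and 0 of the kinases and phosphatases. With the mean of probe sets 0 family genes and 1 of the kinases and phosphatases passed. Leaving out each array gave 0 to 1 family probe sets, 0 to 1 family genes, 0 to 356 probe sets, 0 to 343 genes, 0 to 2 of the kinases and phosphatases, and 0 in the other 5 lists. Where counts moved, the cause was not tested. The alternatives for the family gene count were chosen after seeing the data. Arrays give no depth: both Zfp36l1 probe sets lie at background.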
